A study of Mus musculus with 22 samples.

Results

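The genes described here are those of mouse chromosome 18 that the expression array measured in lung metastases. They are all non-control probe sets whose identifier places them on chromosome 18 and that carry a gene symbol, with 1 probe set per symbol, chosen by the highest mean log2 signal over the 22 arrays. The array held 475 probe sets for the chromosome, of which 440 carried a single symbol, and these gave 440 genes of 19505 genes on all chromosomes. Of the 440, 360 had a signal above the 25th percentile of the array in at least 5 arrays and were tested, among 15545 tested genes in all, and 80 were not tested. The chromosome itself was selected on earlier values of the line differences in the same arrays, in which its genes ran lower in 1 of the injected lines. Counts and medians over its genes are therefore given as descriptions beside the same values for all other genes.

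Mice had been injected by tail vein with a mouse mammary epithelial line that carries the ErbB2 oncogene, NMuMG-ErbB2, with either overexpressed PGC-1alpha, a coactivator of mitochondrial biogenesis (NMuMG-ErbB2/PGC-1alpha), or none (the control NMuMG-ErbB2/VC), and were given phenformin, a biguanide inhibitor of mitochondrial respiration, for 1 week or PBS. Lung metastases were cut out by laser capture microdissection, and 10 ng of total RNA from each was labelled for the array. The 4 groups were control metastases under PBS (n = 5), PGC-1alpha metastases under PBS (n = 6), control metastases under phenformin (n = 5) and PGC-1alpha metastases under phenformin (n = 6). All 4 groups share the NMuMG-ErbB2 background, the vein injection and the lung as host tissue, and differ, as far as the labels say, in PGC-1alpha and the drug. Strain and age of the mice, the promoter of the construct, the number of clones behind each line and the number of animals behind the samples are not given in the sources used here. The p-values below thus measure the spread between these samples, which may be partly technical, and a line difference is one between 2 injected lines.

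Mouse chromosome 18 carries the clustered protocadherins, cell surface proteins that give neurons their adhesive identity, and the desmosomal cadherins, which hold epithelial sheets together. It also carries the genes for the TGF-beta signal transducers Smad2 and Smad4 and for the Wnt pathway suppressor Apc, and the gene for PGC-1beta (Ppargc1b), a relative of the overexpressed coactivator. Genes of a chromosome need share no function, and those below are grouped by role.

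Values are log2 array signals as the authors deposited them, and a difference is a difference of log2 signals. Array medians lay between 6.55 and 6.64, and the median negative control probe set between 4.61 and 5.05. Tested genes of chromosome 18 had mean log2 signals from 4.78 to 12.4 (median 7.34, against 7.24 for all tested genes), with Rps14, a ribosomal protein gene, the brightest. The 80 untested genes had means from 3.10 to 4.96, with Gpr17 the brightest. The median within-group SD was 0.266 over the tested genes of the chromosome and 0.253 over all tested genes. Ppargc1a, the overexpressed gene, lies on another chromosome. Under PBS its log2 level was 7.54 ± 0.60 (SD, n = 5) with the control line and 8.90 ± 0.37 (SD, n = 6) with the PGC-1alpha line (adjusted p = 0.0198). With phenformin the levels were 8.04 ± 0.39 (SD, n = 5) and 8.64 ± 0.79 (SD, n = 6), a difference that did not pass (adjusted p = 0.166). All 8 fixed markers of mammary tumour epithelium were detected, with a mean log2 signal of 9.18 to 9.61 by array. Their median log2 difference between the lines was -0.14 under PBS and -0.20 under phenformin. By limma 0 were called under PBS and 1 was called lower under phenformin, with 2 and 4 at an unadjusted p under 0.05.

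Markers of other cell types were present in every group, and some of them moved with the line. The mean log2 signal of 24 lung markers (alveolar, airway and endothelial genes of other chromosomes) ran from 9.51 to 10.1 in control and from 9.09 to 9.41 in PGC-1alpha arrays under PBS. With phenformin the ranges were 9.30 to 9.94 and 9.09 to 9.70. The mean of 16 immune markers ran from 7.02 to 7.19 against 6.56 to 6.96 under PBS, and from 6.79 to 7.09 against 6.52 to 7.02 under phenformin. All 4 measured neutrophil markers were lower in PGC-1alpha metastases in both treatments, and the ciliated cell marker Ccdc39 and the NK cell marker Klrb1c lay below the median negative control. Other lists went the other way or were split. The 4 fibroblast markers had a median log2 difference of 0.46 under PBS and 0.08 under phenformin, with 0 called by limma and 1 and 0 at an unadjusted p under 0.05. The 5 macrophage markers had 0.16 (1 called higher) and -0.04, and the 3 B cell markers 0.09 and 0.37 (2 called higher under phenformin). The macrophage list holds Csf1r, itself a gene of chromosome 18, whose own difference under phenformin was that median of -0.04. In such bulk samples, fewer cells of a type and less RNA per cell cannot be told apart.

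Under PBS, genes of chromosome 18 were on the whole slightly lower in PGC-1alpha than in control metastases. The median log2 difference over the 360 tested genes was -0.07 (middle 50% of genes from -0.23 to 0.08), against 0.01 over the genes of all other chromosomes (middle 50% from -0.16 to 0.15). Of the 360 genes, 219 (60.8%) lay below 0, against 49.1% of all tested genes. At an adjusted p under 0.05, 8 of 360 genes passed, or 2.22%, against a percentage of 2.93 over all tested genes. Of these 8, 1 was higher (0.278%, against 1.21 in percent of all) and 7 were lower (1.94%, against 1.72 in percent of all). The share of genes called lower was near that over all genes. At an unadjusted p under 0.05, 69 genes of the chromosome passed, 16 higher and 53 lower (19.2%, against 18 in percent of all).

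Ccbe1, which encodes a secreted matrix protein needed for growth of lymphatic vessels, was the only gene of the chromosome that rose under PBS. Its log2 signals were 7.03, 6.31, 6.82, 6.30 and 5.76 in the 5 control arrays, and ran from 7.36 to 8.26 with a median of 7.59 in the 6 PGC-1alpha arrays. Every PGC-1alpha array was above every control array, with a log2 difference of 1.22 (SE 0.21, adjusted p = 0.00424). Under phenformin the control arrays read 6.70, 6.92, 7.78, 7.33 and 7.05 and the PGC-1alpha arrays 7.29 to 8.0 (median 7.81), so the groups overlapped. That difference of 0.57 did not pass (adjusted p = 0.0538).

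The 7 genes that fell under PBS were Prelid2, Cd226, Cyb5a, Lama3, Slc12a2, Timm21 and Isoc1. Cyb5a encodes cytochrome b5, an electron carrier of the endoplasmic reticulum. Its control arrays read 10.80, 11.44, 11.06, 11.14 and 11.44, and its PGC-1alpha arrays 10.16 to 10.65 (median 10.44), with no overlap and a log2 difference of -0.76 (SE 0.17, adjusted p = 0.0212). Lama3, a laminin alpha chain of epithelial basement membranes, read 8.54, 8.16, 8.07, 8.53 and 8.66 in control and 6.97 to 8.28 (median 7.71) in PGC-1alpha arrays. Its groups overlapped, and the difference of -0.75 (SE 0.21) was just past the threshold (adjusted p = 0.0483). Cd226, a receptor of T and NK cells, was dim, with control arrays at 5.74, 5.92, 5.36, 5.53 and 5.95. Its 6 PGC-1alpha arrays read 4.55 to 5.02 (median 4.69), 4 of them below the median negative control, a log2 difference of -0.96 (SE 0.24, adjusted p = 0.031) and at least 1.77-fold on the linear scale. Isoc1 fell by 0.52 (SE 0.14, adjusted p = 0.0404), from 9.26 ± 0.24 (SD, n = 5) to 8.73 ± 0.25 (SD, n = 6).

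The count of 8 ran from 1 to 11 when each array was left out in turn. It was 1 without PGC-1alpha PBS replicate 1, control PBS replicate 2 or control PBS replicate 5, and Ccbe1 was then the gene left. It was 2 without PGC-1alpha PBS replicate 3, 4 without PGC-1alpha PBS replicate 2, and 5 without PGC-1alpha PBS replicate 5 or control PBS replicate 3. Lama3 and Slc12a2, nearest to the threshold, were each lost without any of 14 single arrays. With the lung score or the immune score as a covariate, 0 genes of the chromosome passed limma's test, with 39 and 22 at an unadjusted p under 0.05, and Ccbe1 had an adjusted p of 0.208 and 0.135. Over all tested genes these fits called 16 and 24, against 455 without a covariate.

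Under phenformin the shift of chromosome 18 in the PGC-1alpha line was larger. The median log2 difference was -0.17 (middle 50% from -0.38 to 0.08), against 0.01 over the genes of other chromosomes (middle 50% from -0.25 to 0.24). In all, 249 of 360 genes (69.2%) lay below 0, against 49.6% of all tested genes. At an adjusted p under 0.05, 93 genes passed (25.8%, against 21.1 in percent of all tested genes). Of these, 73 were lower and 20 higher, or 20.3% and 5.56% of the tested genes of the chromosome. Over all tested genes the shares were 11.1 in percent lower and 10 in percent higher. With each array centred on its median, the genes of all chromosomes past the threshold split into 2203 lower and 1112 higher, against 1723 and 1560 as deposited, and those of chromosome 18 into 82 and 14. At an unadjusted p under 0.05, 145 genes passed, 36 higher and 109 lower (40.3%, against 37.1 in percent of all).

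The genes called higher and lower differed in signal and in size of change. The 73 lower genes had a median log2 signal of 8.34 and log2 differences from -0.33 to -1.66 (median -0.59), and 4 of them, Prelid2, Timm21, Ecscr and Dsg2, changed by more than 2-fold. The 20 higher genes had a median log2 signal of 6.82 and differences from 0.35 to 0.67 (median 0.48), none over 2-fold. For 28 genes every PGC-1alpha array was below every control array (7.78%, against 4.94 in percent of all tested genes), and for 7 every PGC-1alpha array was above (1.94%, against 6.07). Under PBS the corresponding numbers were 11 (3.06%, against 1.61) and 2 (0.556%, against 1.65). Timm21, Ap3s1 and Ier3ip1 were the 3 genes whose groups did not overlap, in the lower direction, in both treatments. The share of all tested genes for which this held in both treatments was not counted.

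The count of 93 was 61 without PGC-1alpha phenformin replicate 3 or control phenformin replicate 2. It was 60 with the lung score as a covariate (16.7% of the chromosome, against 12.7% of all tested genes) and 41 with the immune score (11.4%, against 9.39%). The median of the chromosome was -0.173 and -0.165 in these fits, against -0.171 without a covariate. After quantile normalization 51 genes passed, 14.2% against 15.7% of all tested genes, so the share called in either direction was then below that of all genes, while the share called lower was 10.3% against 7.05%.

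Beside the other chromosomes, chromosome 18 stood at the low end in both treatments. Of the 20 chromosomes with at least 100 tested genes, it had the lowest median under phenformin, -0.171, followed by chromosome 16 at -0.156, chromosome 13 at -0.103 and chromosome 12 at -0.090. The highest was chromosome 7 at 0.114. Under PBS chromosome 16 was lowest at -0.139, chromosome 18 came next at -0.066, and all others lay between -0.027 and 0.036. In the share of genes called lower under phenformin, chromosome 16 was first with 24.5%, chromosome 18 second with 20.3%, and chromosomes 13 and X each had 17.0%. Under PBS, chromosome 16 had 8.37% of its genes called lower, while chromosome 18 ranked 8 from the top with 1.94%.

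**Figure D1:**
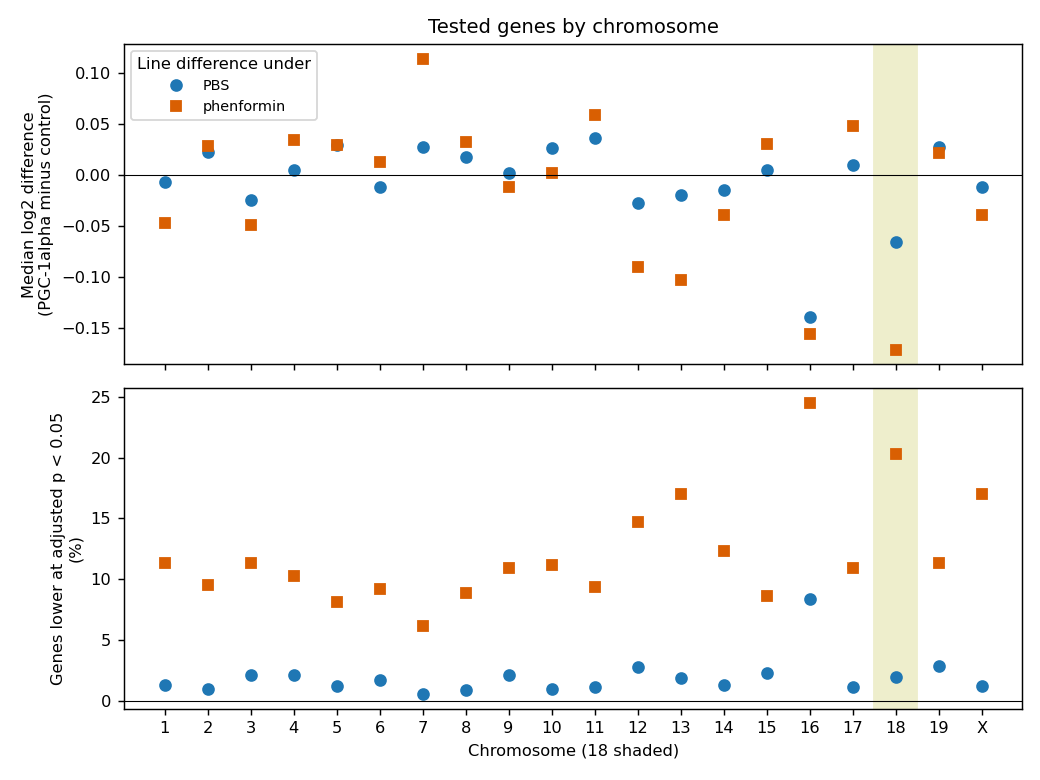
Median log2 difference between PGC-1alpha and control metastases (upper panel) and percentage of tested genes called lower at adjusted p under 0.05 (lower panel) for each chromosome, under PBS (circles) and phenformin (squares), with chromosome 18 shaded. Chromosomes 16 and 18 have the lowest medians in both treatments, and chromosome 18 reaches -0.171 under phenformin.

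The shift was compared among genes of like signal, since bright and dim genes differed on every chromosome. All tested genes were divided by mean log2 signal into 5 equal bins, with limits at 4.57, 5.93, 6.79, 7.69, 8.80 and 13.4, which held 63, 67, 80, 65 and 85 genes of chromosome 18 from the dimmest to the brightest. Under PBS the medians of chromosome 18 in the 2 dimmest bins were 0.02 and 0.03, against 0.01 and 0.03 for other chromosomes. In the 3 brighter bins they were -0.10, -0.10 and -0.14, against 0.02, -0.01 and -0.03 for other chromosomes. Under phenformin the medians of chromosome 18 were 0.11, -0.07, -0.23, -0.26 and -0.26 from dim to bright. Those of other chromosomes were 0.18, 0.15, -0.01, -0.14 and -0.13, so chromosome 18 was lower in each of the 5 bins. In the brightest bin, 36.5% of the genes of chromosome 18 were called lower under phenformin, 31 of 85, and 0 were called higher. In the same bin of other chromosomes, 15.4% were called lower and 3.21% higher. Across the genes of chromosome 18, log2 signal and log2 difference had a Spearman correlation of -0.25 under PBS and -0.37 under phenformin (n = 360), against -0.07 and -0.33 across other genes. These correlations are across genes of the same arrays, which are not independent.

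**Figure D2:**
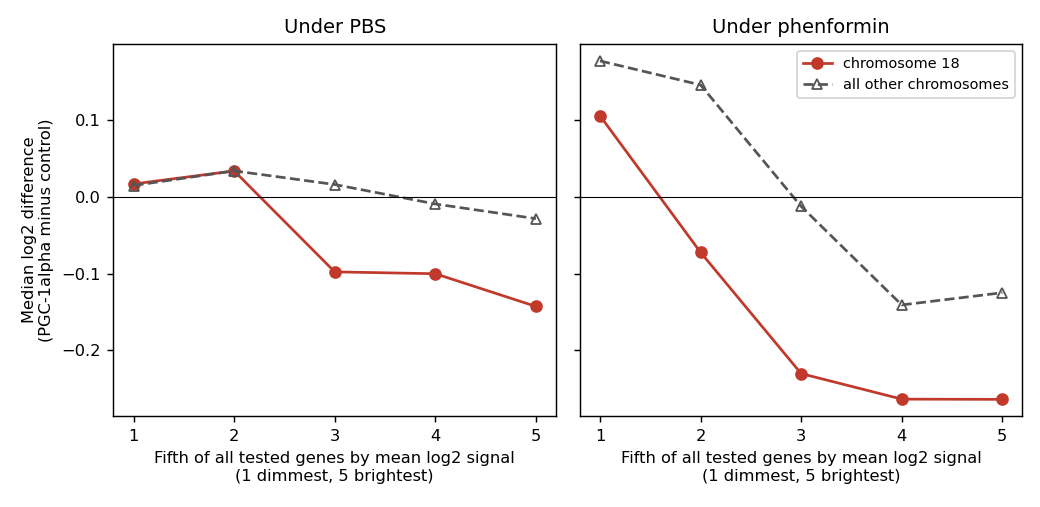
Median log2 difference between PGC-1alpha and control metastases in 5 bins of mean log2 signal, from 1 (dimmest) to 5 (brightest), for genes of chromosome 18 (filled circles) and of all other chromosomes (open triangles). Chromosome 18 lies below the other chromosomes in bins 3 to 5 under PBS and in every bin under phenformin.

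The shift was then read array by array, as the median over the tested genes of an array's log2 signal minus the control mean of the same treatment. Under PBS the 5 control arrays lay between -0.096 and 0.030 and the 6 PGC-1alpha arrays between -0.147 and -0.016, so the groups overlapped. The low control array was control PBS replicate 1, whose median over other chromosomes was also low, at -0.060. Under phenformin the control arrays lay between -0.074 and 0.060 and the PGC-1alpha arrays between -0.241 and -0.104, with no overlap. In all 12 PGC-1alpha arrays the median over chromosome 18 was below that over other chromosomes, by 0.009 to 0.154 under PBS and by 0.093 to 0.258 under phenformin. It was also below in 3 of 5 control arrays under PBS, by up to 0.036, and in 1 of 5 under phenformin, by 0.065. PGC-1alpha PBS replicates 4, 5 and 6, at 0.009, 0.018 and 0.014 below, lay within the range of the control PBS arrays. Other chromosomes lay between -0.060 and 0.038 in all 22 arrays. The control arrays enter their own reference mean, and the difference between the 2 treatments in this value was not tested.

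**Figure D3:**
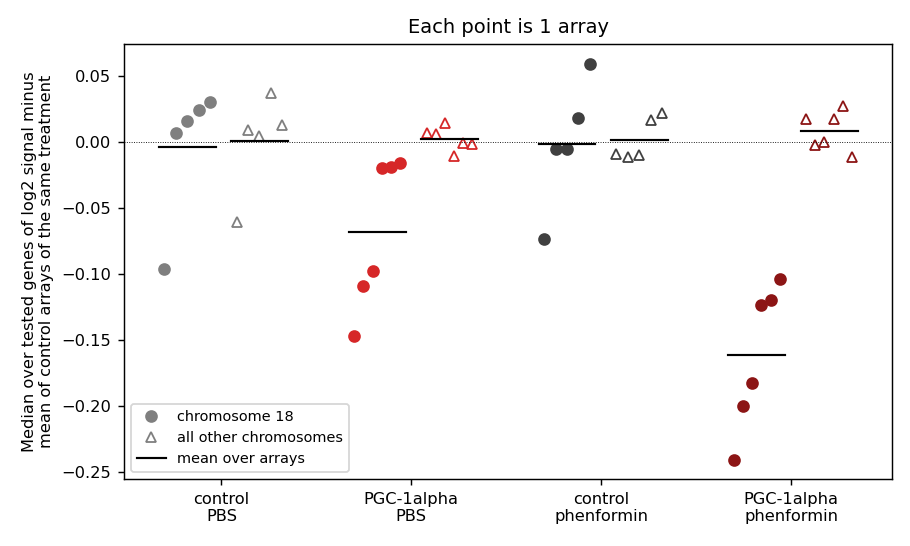
Median over tested genes of the log2 signal of each array minus the mean of the control arrays of the same treatment, for chromosome 18 (circles) and all other chromosomes (triangles), with horizontal bars at group means. The 6 PGC-1alpha phenformin arrays lie between -0.241 and -0.104 for chromosome 18, below every control array.

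The log2 differences under the 2 treatments came from separate arrays and ran partly together across genes. Over the 360 genes their Pearson correlation was 0.47 and their Spearman correlation 0.52, against 0.54 and 0.51 over 15185 genes of other chromosomes. Of the 360 genes of chromosome 18, 183 were below 0 and 75 above 0 in both treatments. Of the 15185 genes of other chromosomes, 5136 were below 0 in both. Of the 73 genes called lower under phenformin, 70 also lay below 0 under PBS, and of the 20 called higher, 16 lay above 0 there. Of the 7 genes called lower under PBS, 5 were called lower under phenformin as well (Prelid2, Cyb5a, Slc12a2, Timm21 and Isoc1). Lama3 (-0.46, adjusted p = 0.104) and Cd226 (-0.40, adjusted p = 0.228) were not. The same counts for called genes were not made on other chromosomes, so they are not shown to be particular to chromosome 18.

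The lower values were spread along the chromosome. The 360 tested genes were put in the order of the reference gene table and divided into 10 consecutive blocks of 36 genes. Under phenformin all 10 block medians were below 0, from -0.316 in the third block (Polr2d to Sil1) to -0.087 in the eighth (Pde6a to Prelid3a). The first block, Cul2 to Impact, stood at -0.276, the second, Zfp521 to Ammecr1l, at -0.217, and the last, Smad2 to Tmx3, at -0.220. Each block held between 4 and 10 genes called lower and between 1 and 3 called higher. Under PBS 9 of 10 block medians (90%) were below 0, from -0.151 in the sixth block (Eif3j2 to Cep120) to -0.054 in the eighth, and the ninth block, Spire1 to Zbtb7c, stood at 0.015.

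A running median over 21 neighbouring genes showed the same spread at finer grain. Under phenformin 325 of 340 windows were below 0. The lowest value, -0.445, was shared by the windows centred on Mpp7, Wac and Fzd8 near the start of the chromosome. The window centred on Mpp7 ran from Map3k8 to Snrpd1. The highest, at 0.076, was centred on Slc26a2 and ran from Myoz3 to Htr4. Under PBS 290 of 340 windows were below 0. The lowest value, -0.214, was shared by neighbouring windows with centres from Garem1 to Zfp35, the first of which ran from Taf4b to Rprd1a. The highest was 0.106, centred on Arhgef37 (Tcof1 to Apcdd1). In the Mpp7 window, the genes called lower under phenformin included Jcad, Zeb1, Arhgap12, Kif5b and Rab18, at -0.45, -0.45, -0.52, -0.45 and -0.59, and Cetn1 was called higher, at 0.44. The highest windows of the 2 treatments overlapped from Tcof1 to Htr4. In the Myoz3 to Htr4 window, Synpo (0.47), Cdx1 (0.52), Ppargc1b (0.53), Il17b (0.48) and Pcyox1l (0.43) were called higher under phenformin.

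**Figure D4:**
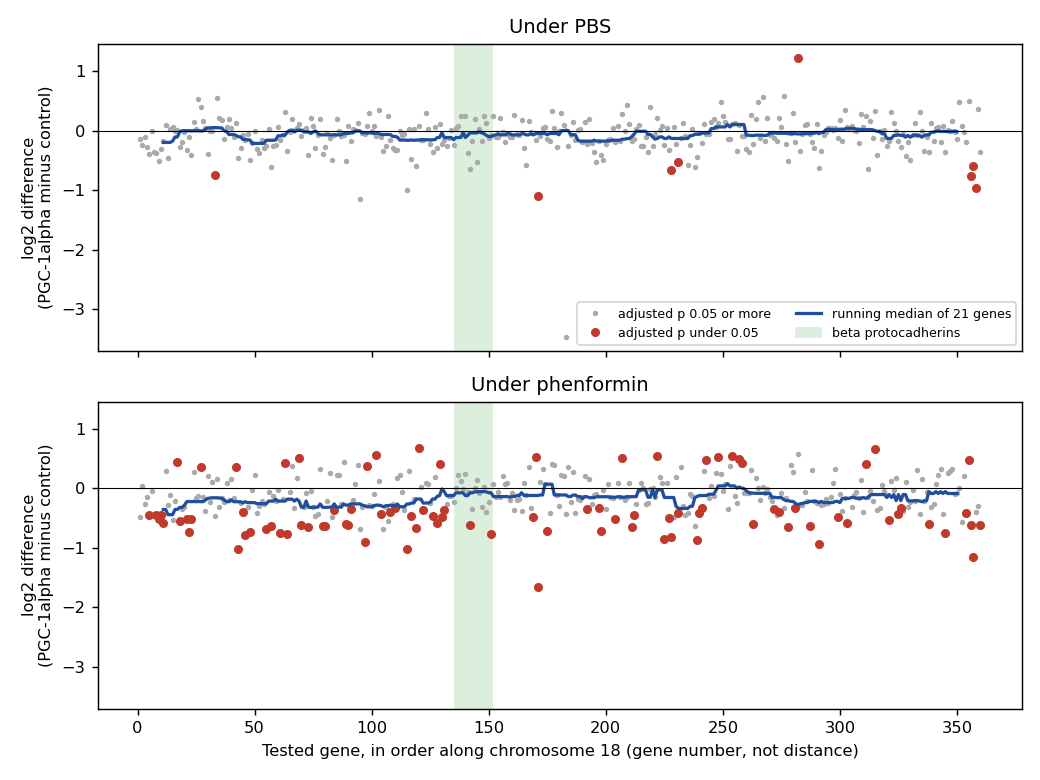
Log2 difference between PGC-1alpha and control metastases for the 360 tested genes in their order along chromosome 18 (gene number, not distance), under PBS and under phenformin, with the running median of 21 genes as a line, genes with adjusted p under 0.05 in red and the beta protocadherins shaded. Under phenformin 325 of 340 running medians are below 0 and genes called lower occur along the whole chromosome.

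Protocadherins of the beta cluster lay near 0 on the whole. Each gene of the cluster encodes an adhesion protein with its own outer part, and neighbouring copies are alike in sequence, so probe sets of single copies may cross-hybridise and their values are uncertain. Of 20 beta protocadherins, 16 were tested (Pcdhb1, Pcdhb7, Pcdhb13 and Pcdhb15 were too dim), with mean log2 signals from 4.85 to 7.31. The alpha and gamma clusters had no gene among those described here. Under PBS their median log2 difference was -0.01, 8 were below 0 and 8 above, and 0 passed limma's test (2 at an unadjusted p under 0.05, with Pcdhb9 at the smallest adjusted p, 0.0555). Under phenformin the median was -0.04, and 2 of 16 fell and 0 rose, a share of falls near the 11.1% over all tested genes. Over the chromosome 20.3% fell. The 3 dimmer bins of signal, which span the cluster, had chromosome 18 medians of 0.02, 0.03 and -0.10 under PBS. Under phenformin these were 0.11, -0.07 and -0.23. The cluster itself was not compared with genes of like signal. Pcdhb9, the brightest, read 7.64, 8.05, 7.29, 7.04 and 7.44 in control and 6.53 to 7.32 (median 6.80) in PGC-1alpha arrays, overlapping, with a difference of -0.61 (SE 0.18, adjusted p = 0.022). Pcdhb20 read 5.85, 6.73, 6.20, 6.22 and 5.62 against 4.92 to 5.75 (median 5.40), also overlapping, with a difference of -0.77 (SE 0.21, adjusted p = 0.0145). The nonclustered Pcdh1 and Pcdh12 had differences between -0.10 and 0.08 in the 2 treatments, and neither passed, nor did either have an unadjusted p under 0.05.

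Of 10 cadherin genes of desmosomes and classical junctions, only Dsc1, Dsg2 and Cdh2 had enough signal to be tested. Dsg2, the desmoglein of simple epithelia, fell under phenformin. Its control arrays read 6.87, 5.77, 6.58, 6.02 and 7.73, and its PGC-1alpha arrays 5.36 to 5.92 (median 5.54), with an overlap of control replicate 2 and a log2 difference of -1.01 (SE 0.23, adjusted p = 0.00616). Under PBS its difference was -0.46 (adjusted p = 0.303). Dsc1, a desmocollin of stratified epithelia, rose by 0.35 on the log2 scale under phenformin (adjusted p = 0.0316) at a dim mean signal of 5.39, near the dim end of the tested genes. Cdh2, N-cadherin, read 9.69 ± 0.13 (SD, n = 5) and 9.59 ± 0.13 (SD, n = 6) under PBS and differed by -0.16 under phenformin (adjusted p = 0.334).

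Among the 9 genes that regulate adhesion and epithelial state, 4 fell and 1 rose under phenformin, with a median log2 difference of -0.45 (11.1% of all tested genes fell and 10% rose), and 0 passed under PBS (3 at an unadjusted p under 0.05, smallest adjusted p 0.0692). Epb41l4a, a FERM domain protein of the cell cortex, fell by 0.60 on the log2 scale (adjusted p = 0.0158), and no PGC-1alpha array reached a control array. Apc, which marks beta-catenin for destruction, fell by 0.62 (adjusted p = 0.0407), from 7.55 ± 0.28 (SD, n = 5) to 6.94 ± 0.29 (SD, n = 6), while its PBS difference was 0.07. The transcription factors Tcf4 and Zeb1 fell by 0.48 (adjusted p = 0.0233) and 0.45 (adjusted p = 0.0499). Gata6, a transcription factor of endoderm and lung epithelium, rose by 0.35 (adjusted p = 0.0416). Its PBS difference was 0.40, with control arrays from 6.40 to 6.79 all below the PGC-1alpha arrays from 6.89 to 7.42, and did not pass (adjusted p = 0.0692).

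Of the 3 Smad genes, Smad2, a receptor-activated transducer of TGF-beta signals, fell by 0.44 under phenformin (adjusted p = 0.0305). Its control arrays read 8.97, 8.77, 8.81, 8.70 and 8.72 and its PGC-1alpha arrays 8.07 to 8.63 (median 8.38), with no overlap. Smad4, the shared partner, and Smad7, the inhibitor, did not pass in either treatment, with differences of -0.20 and 0.32 under PBS and -0.17 and 0.13 under phenformin. Averaged over treatments, Smad2 and Smad4 were called lower (2 of the 3 genes, smallest adjusted p 0.0255), against 13.3% of all tested genes. Of 7 tested receptor and ligand genes (Pdgfrb, Csf1r, Hbegf, Fgf1, Htr4, Nr3c1 and Spry4), 0 passed limma's test in either treatment, with 2 at an unadjusted p under 0.05 in each. Their medians were 0.25 under PBS and -0.04 under phenformin, and the smallest adjusted p was 0.0923. With both treatments averaged, 2 of the 7 were called higher (median 0.10, smallest adjusted p 0.0285), against 11.3% of all tested genes. Hbegf, an ErbB family ligand, had the difference 0.29 under PBS (adjusted p = 0.211), and Csf1r, the macrophage growth factor receptor, 0.25 (adjusted p = 0.493).

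The 2 largest falls under phenformin were those of Prelid2 and Timm21, which encode mitochondrial proteins. Of 12 mitochondrial and metabolic genes, 4 fell and 1 rose under phenformin (median log2 difference -0.37), and 1 fell under PBS (median -0.08). Over all tested genes 11.1% fell and 10% rose under phenformin, and over the chromosome 20.3% and 5.56%, which are the shares to set beside each list. Prelid2, a member of a family of phospholipid carriers of the intermembrane space, read 7.27, 8.03, 8.25, 7.53 and 8.45 in control and 5.92 to 7.53 (median 6.97) in PGC-1alpha arrays under PBS. Under phenformin it read 8.03, 7.82, 8.51, 8.47 and 8.54 against 5.88 to 7.22 (median 6.59). The groups overlapped under PBS and were apart under phenformin, with differences of -1.09 (SE 0.27, adjusted p = 0.0326) and -1.66 (SE 0.27, adjusted p = 0.00108), the latter 3.15-fold.

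Timm21, a part of the translocase that brings proteins through the inner membrane, was not on that list and fell in both treatments. Its control arrays read 7.62, 8.11, 7.82, 7.64 and 8.0 under PBS and 8.41, 7.69, 8.23, 7.82 and 8.33 under phenformin. Its PGC-1alpha arrays read 7.01 to 7.41 (median 7.26) and 6.62 to 7.39 (median 6.89). The groups did not overlap in either treatment, with differences of -0.59 (SE 0.16, adjusted p = 0.0406) and -1.15 (SE 0.16, adjusted p = 0.00028), the latter 2.21-fold.

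Slc25a46, an outer membrane protein of mitochondrial dynamics, passed under phenformin and not under PBS. It read 9.61, 9.60, 9.17, 9.66 and 9.36 in control and 8.69 to 8.99 (median 8.84) in PGC-1alpha arrays, without overlap, a difference of -0.62 (SE 0.11, adjusted p = 0.00137). Under PBS the group means were 9.03 ± 0.13 (SD, n = 5) and 8.95 ± 0.17 (SD, n = 6), a difference of -0.09 (adjusted p = 0.724). The change in that difference with treatment, -0.53, did not pass (adjusted p = 0.27). Ndufa2, a subunit of respiratory complex I, read 12.69, 12.36, 12.48, 12.39 and 12.32 against 11.81 to 12.17 (median 11.89), without overlap, and fell by 0.48 (adjusted p = 0.00504). Afg3l2, a subunit of the inner membrane AAA protease, read 7.53, 7.84, 7.66, 7.61 and 7.62 against 6.57 to 7.49 (median 7.03), also without overlap, and fell by 0.63 (adjusted p = 0.00653). Atp5a1, the alpha subunit of ATP synthase, differed by -0.04 (adjusted p = 0.77).

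Ppargc1b, which encodes PGC-1beta, was the gene of this list that rose. Its phenformin control arrays read 6.28, 6.0, 6.45, 5.92 and 6.21 and its PGC-1alpha arrays 6.35 to 6.95 (median 6.74), overlapping at 1 array each, with a difference of 0.53 (SE 0.15, adjusted p = 0.018). Under PBS its difference was 0.11 (adjusted p = 0.765). PGC-1alpha and PGC-1beta are encoded on different chromosomes and measured by separate probe sets.

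**Figure D5:**
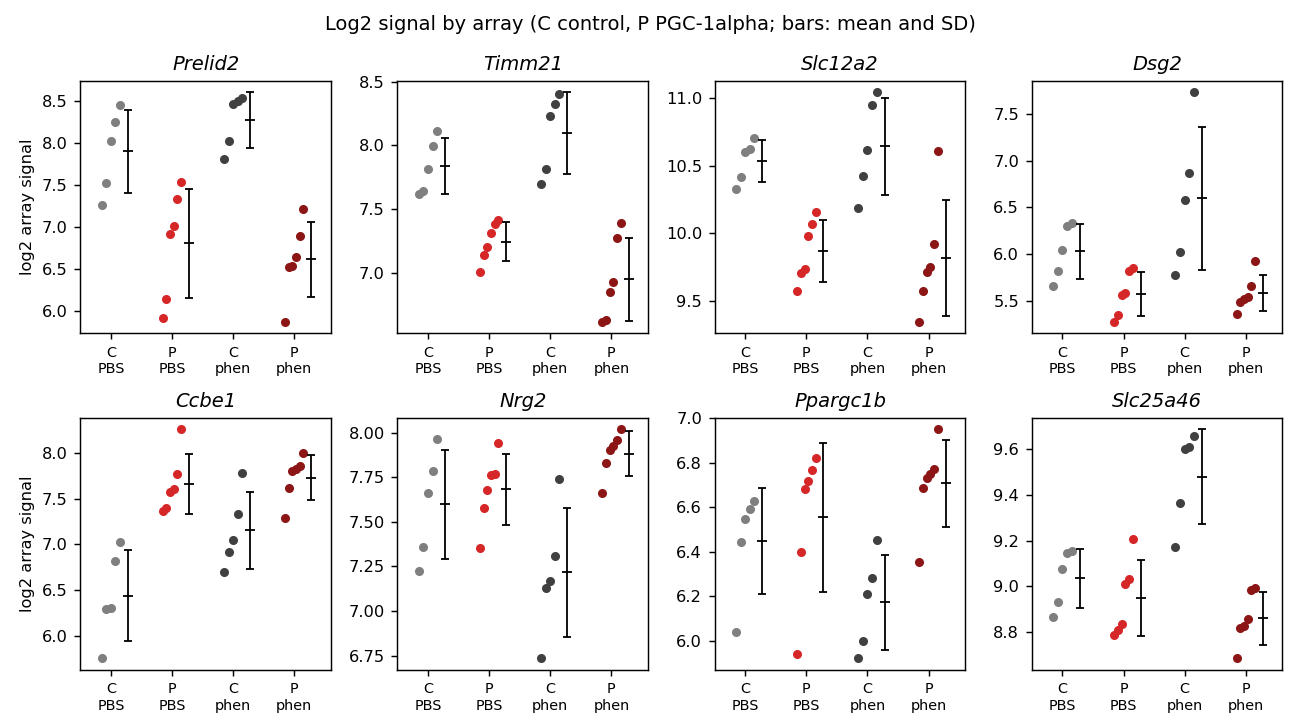
Log2 signal of every array for Prelid2, Timm21, Slc12a2, Dsg2, Ccbe1, Nrg2, Ppargc1b and Slc25a46 in control (C) and PGC-1alpha (P) metastases under PBS and phenformin (phen), with bars for the mean and SD. Timm21 is lower in every PGC-1alpha array than in every control array of the same treatment, and Slc25a46 is higher in control phenformin arrays than in PGC-1alpha phenformin arrays. Axes differ between panels and do not start at 0.

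All 8 genes of translation lay below 0 under phenformin (median -0.15), where 69.2% of the tested genes of the chromosome and 49.6% of all did. Of the 8, 3 fell, against 20.3% of the chromosome and 11.1% of all. They were Lars and Nars, cytosolic leucyl and asparaginyl tRNA synthetases, at -0.72 (adjusted p = 0.0063) and -0.34 (adjusted p = 0.022), and Etf1, a translation termination factor, at -0.43 (adjusted p = 0.0198). Lars read 7.28, 7.39, 7.72, 7.57 and 7.55 in control and 6.38 to 7.31 (median 6.69) in PGC-1alpha arrays, overlapping through PGC-1alpha replicate 1. Rps14 read 12.50 ± 0.10 (SD, n = 5) and 12.33 ± 0.12 (SD, n = 6) and did not pass (adjusted p = 0.186). Under PBS the median was -0.11 and 0 of the 8 passed limma's test (1 at an unadjusted p under 0.05, Eif1a, adjusted p = 0.0517).

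Of 11 genes of the cell cycle, cytoskeleton and nucleus, 4 fell and 1 rose under phenformin (median -0.29, with 11.1% lower and 10% higher over all tested genes), and 0 passed under PBS (5 at an unadjusted p under 0.05, smallest adjusted p 0.127). Kif20a, a kinesin of cytokinesis, read 7.48, 6.93, 7.15, 7.10 and 7.91 in control and 5.63 to 7.14 (median 6.40) in PGC-1alpha arrays, a difference of -0.91 (SE 0.22, adjusted p = 0.00802). The overlap came from 1 PGC-1alpha array, replicate 4. Under PBS its difference was -0.05. Among the others, Rock1 fell by 0.53 (adjusted p = 0.0119). Esco1, a cohesin acetyltransferase, fell by 0.74 (adjusted p = 0.0403) and Kif5b, a transport kinesin, by 0.45 (adjusted p = 0.0305). Cdc23, a subunit of the anaphase-promoting complex, rose by 0.37 (adjusted p = 0.0425).

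Of 12 immune and interferon genes, 1 fell and 1 rose under phenformin (median -0.23), near the shares of 11.1% and 10% over all tested genes, and 0 passed under PBS (4 at an unadjusted p under 0.05, smallest adjusted p 0.182). Cd14, a lipopolysaccharide co-receptor of monocytes, neutrophils and some epithelia, fell by 0.59 (adjusted p = 0.00778), from 10.997 ± 0.30 (SD, n = 5) to 10.41 ± 0.20 (SD, n = 6). It was lost as a call with the immune score as a covariate. Il17b, a secreted cytokine, rose by 0.48 (SE 0.11, adjusted p = 0.00651), with control arrays at 8.34, 8.10, 8.19, 8.37 and 8.49 all below the PGC-1alpha arrays at 8.62 to 8.93 (median 8.80). Iigp1, an interferon-induced GTPase, read 8.71 ± 0.20 (SD, n = 5) against 8.10 ± 0.66 (SD, n = 6) under PBS, a difference of -0.61 that did not pass (adjusted p = 0.273). Sting1, the adaptor of cytosolic DNA sensing and not one of the 12, fell by 0.47 under phenformin (adjusted p = 0.0255) and differed by -0.48 under PBS (adjusted p = 0.0724).

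The other large falls under phenformin were Ecscr, Psmg2, Smim3, C330018D20Rik, Slc12a2 and Trappc8. Slc12a2, the sodium, potassium and chloride cotransporter of secretory epithelia, read 10.60, 10.71, 10.33, 10.62 and 10.41 in control and 9.58 to 10.16 (median 9.86) in PGC-1alpha arrays under PBS. Under phenformin it read 10.62, 10.95, 10.19, 11.04 and 10.43 against 9.35 to 10.61 (median 9.73). The groups were apart under PBS and overlapped under phenformin through PGC-1alpha replicate 4, with differences of -0.66 (SE 0.18, adjusted p = 0.0463) and -0.82 (SE 0.18, adjusted p = 0.00502). Ecscr, an endothelial surface protein, read 7.65, 8.35, 7.66, 8.04 and 7.46 against 5.83 to 7.54 (median 6.77) under phenformin. Its difference was -1.02 there (SE 0.30, adjusted p = 0.0196) and -1.0 under PBS (adjusted p = 0.0656). The 7 endothelial markers had a median difference of -0.36 under phenformin, with 1 called lower. The call of Ecscr was lost with the lung score or the immune score as a covariate. It was also lost without PGC-1alpha phenformin replicate 3 or control phenformin replicate 2. Of the 40 phenformin calls followed through the settings, 17 were lost with the lung score and 22 with the immune score. The cause of the fall was not tested.

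Trappc8, a subunit of a vesicle tethering complex, read 7.0, 6.70, 6.31, 6.69 and 7.18 in control and 5.82 to 6.15 (median 6.02) in PGC-1alpha arrays under phenformin, without overlap. Its difference was -0.78 (SE 0.21, adjusted p = 0.0141), against -0.15 under PBS (adjusted p = 0.754). Smim3, a small membrane protein, read 10.10, 10.65, 10.13, 10.70 and 10.32 against 8.79 to 9.97 (median 9.52), also without overlap, with a difference of -0.88 (SE 0.19, adjusted p = 0.00443). Psmg2, a proteasome assembly chaperone, fell by 0.94 (SE 0.28, adjusted p = 0.0239). C330018D20Rik fell by 0.86 (SE 0.23, adjusted p = 0.0126).

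The 10 largest rises under phenformin were Nrg2, Cfap53, Reep2, Tex43, Ppargc1b, Cdx1, Kctd16, Prr16, Syt4 and Il17b. Nrg2, a neuregulin ligand of ErbB receptors, read 7.17, 6.74, 7.74, 7.13 and 7.31 in control and 7.66 to 8.02 (median 7.91) in PGC-1alpha arrays, overlapping through control replicate 3, with a difference of 0.67 (SE 0.15, adjusted p = 0.0061). Under PBS its difference was 0.08 (adjusted p = 0.823). Cdx1, an intestinal homeobox factor, had control arrays from 6.10 to 6.41 and PGC-1alpha arrays from 6.65 to 7.02, without overlap, and a difference of 0.52 (SE 0.12, adjusted p = 0.00553). Cfap53, a protein of motile cilia, and Reep2, a shaper of endoplasmic reticulum tubules, were near the negative controls. Their differences of 0.66 (adjusted p = 0.0495) and 0.56 (adjusted p = 0.0222) correspond to at least 1.37-fold and at least 1.17-fold. Kctd16, Tex43, Prr16 and Syt4 rose by 0.52, 0.54, 0.51 and 0.50.

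Of the 40 phenformin calls among the largest differences and the lists, 20 held when each array was left out in turn, and 20 did not. Cfap53 and Zeb1, nearest to the threshold, were lost without any of 19 and 18 single arrays. Without PGC-1alpha phenformin replicate 3 (61 genes called), Tex43, Ecscr, Psmg2, Pcdhb9, Dsc1, Smad2, Apc, Gata6, Etf1, Nars, Cdc23, Esco1 and Kif5b were lost too. Without control phenformin replicate 2 (61 called), Tex43, Prr16, Syt4, Ecscr, Pcdhb9, Smad2, Apc, Tcf4, Etf1, Cdc23 and Kif5b were lost. Further losses were of Reep2, Syt4, Tex43, Psmg2, Apc, Gata6 and Cdc23 without control phenformin replicate 4 (70 called), and of Kctd16, Tex43, Dsc1, Apc, Gata6, Nars, Esco1 and Kif5b without control phenformin replicate 5 (68 called). Control phenformin replicate 1 (76 called) ended the calls of Prr16, Syt4, Psmg2, Dsc1, Smad2, Apc, Gata6 and Esco1, and control phenformin replicate 3 (94 called) those of Kctd16, Tex43, Prr16, Gata6, Cdc23 and Esco1. Among the PGC-1alpha phenformin arrays, replicate 1 ended those of Prr16 and Gata6, and replicate 2 those of Tex43, Kctd16, Dsc1, Smad2, Apc, Gata6 and Esco1. Replicate 4 ended those of Apc, Gata6 and Cdc23, replicate 5 those of Psmg2, Dsc1, Smad2, Tcf4, Gata6 and Cdc23, and replicate 6 those of Tex43, Prr16, Dsc1, Apc, Cdc23, Esco1 and Kif5b. Prelid2, Timm21, Dsg2, Kif20a, Smim3, Slc12a2, Trappc8, Ndufa2, Afg3l2, Slc25a46, Lars, Nrg2 and Cdx1 were called in every setting that tested them. Dsg2 was tested in 34 settings and the others in 35. Genes named above outside these 40 (Jcad, Arhgap12, Rab18, Cetn1, Synpo, Pcyox1l, Sting1, Cyb5a and Isoc1) were not followed through the settings under phenformin.

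The 2 largest negative differences under PBS, those of Scgb3a2 and Nme5, did not pass and were chosen for mention after their values were seen. Scgb3a2, a secretoglobin of airway club cells, read 7.92, 10.33, 6.39, 10.75 and 10.48 in control and 4.32 to 10.11 (median 4.97) in PGC-1alpha arrays under PBS. The difference of -3.47 (SE 1.31) had an adjusted p of 0.155. Control replicate 3 was low and PGC-1alpha replicate 3 was high, and the groups overlapped. Nme5, a gene of motile cilia, differed by -1.14 under PBS (SE 0.48, adjusted p = 0.206). The 3 tested club and ciliated cell markers of other chromosomes had a median difference of -1.98 under PBS, with 0 of them past the threshold and 2 at an unadjusted p under 0.05.

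Phenformin itself moved no gene of the chromosome past the threshold. In control metastases 0 of 360 genes passed limma's test, as did 0 of all tested genes. At an unadjusted p under 0.05, 35 passed, 24 higher and 11 lower with phenformin (9.72%, against 9.64 in percent of all). The median log2 difference was 0.05, against -0.01 over other chromosomes, and 147 genes (40.8%) were below 0, against 51.6 in percent of all. The smallest p-values belonged to Slc25a46 (0.44), Nedd4l (0.53), a ubiquitin ligase of sodium channels, and Pcdhb17 (0.59), each with adjusted p = 0.223. In PGC-1alpha metastases 0 of 360 passed, and 17 had an unadjusted p under 0.05, 8 higher and 9 lower (4.72%, against 4.34 in percent of all). The median there was -0.03, against -0.01 over other chromosomes, and 203 genes (56.4%) were below 0, against 53.1 in percent of all. The smallest p-values belonged to Zfp608 (0.40), Nfatc1 (-0.43) and Kif20a (-0.55), each with adjusted p = 0.957.

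The interaction, which asks whether the line difference changed with phenformin, passed for 0 of 360 genes by limma, and 32 had an unadjusted p under 0.05, 12 higher and 20 lower (8.89%, against 11.1 in percent of all). Its median was -0.09, against -0.01 over other chromosomes, and 222 genes (61.7%) were below 0, against 51.3 in percent of all. The genes with the smallest p-values were Slc25a46 (-0.53, adjusted p = 0.27), Nedd4l (-0.61) and Pcyox1l (0.52). A gene past the threshold under phenformin and not under PBS is therefore not shown to differ between the treatments.

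With both treatments averaged, 103 of 360 genes differed between the lines (28.6%, against 24.6 in percent of all), 83 lower (23.1%, against 13.3 in percent of all) and 20 higher (5.56%, against 11.3). At an unadjusted p under 0.05, 146 passed (40.6%, against 39 in percent of all). The median log2 difference was -0.12, against 0.02 over other chromosomes, and 240 genes (66.7%) were below 0, against 47.5 in percent of all. The largest rises were Ccbe1 (0.90), Cfap53 (0.49), Dipk1c (0.48), Prr16 (0.39) and Gata6 (0.38). The largest falls were Prelid2 (-1.38), Ecscr (-1.01), Timm21 (-0.87), Psmg2 (-0.79) and Slc12a2 (-0.74). The count was 21 with the lung score as a covariate (5.83%, against 4.63% of all tested genes) and 6 with the immune score (1.67%, against 2.63%). The medians in these fits were -0.119 and -0.092, against -0.121 without a covariate.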

How the data were processed

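The log2 signals analysed were deposited by the authors, who processed the arrays with oligo, per the submitters' processing notes. The version, background correction and normalization are not given in the sources used here. Another deposited table has 22 columns whose names match no sample and was not used. Of 28815 probe sets, 6609 are controls. The 22206 others include 19572 with 1 symbol, which gave 19505 genes (the brightest probe set per symbol, 55 genes with more than 1). Positive controls ranked above negative controls with an area under the curve of 0.902 to 0.938. Genes above the 25th percentile of the array in at least 5 arrays were tested in R 4.3.3 on 4 group means over all 22 arrays, by lmFit and eBayes of limma 3.58.1 (two-sided, 18 residual and 5.67 prior degrees of freedom). The p-values were adjusted by Benjamini-Hochberg over 15545 genes, with a threshold of 0.05. Arrays correlated at 0.927 to 0.980 and none were identical.

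The order along the chromosome came from a RefSeq table of GRCm38.p6, which placed all 440 symbols on chromosome 18. The build of the array identifiers is not given in the sources used here, so no coordinates are printed. Where a group lay below the median negative control, the fold was bounded by that median. The genes named are the 10 largest rises and falls past the threshold for each line difference and 5 for the averaged one. The 3 smallest p-values are named where none passed, as are genes of fixed lists. Jcad, Arhgap12, Rab18, Cetn1, Synpo, Sting1, Ap3s1 and Ier3ip1 meet none of these rules and were named with their values in view. The phenformin rise of Pcyox1l was named in the same way. The chromosome and the lists were chosen with earlier results of these data known. The test was checked on simulated data. Alternatives covered centring, quantile and cyclic loess normalization, filters, array weights, marker scores as covariates, a replicate block and leaving out arrays. Figures were drawn with matplotlib 3.10.9 in Python 3.11.15.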

Additional observations from a re-analysis of the deposited data

Results flagged for a closer look

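Of the 104 groups of 4 to 10 arrays examined (25 genes of the chromosome and the chromosome median), chance alone would give a stray array in about 1 in 20. Control PBS replicate 1 had a chromosome 18 median of -0.0963 relative to the control mean, while the other 4 control PBS arrays lay between 0.00738 and 0.0305. Its median over other chromosomes was also the lowest of the control PBS arrays, at -0.060. Cfap53 read 5.45 in control phenformin replicate 1, with the others at 4.44 to 4.70, and 6.69 in PGC-1alpha phenformin replicate 3, with the others at 4.72 to 5.38. Reep2 read 5.51 in PGC-1alpha PBS replicate 5, with the others at 4.86 to 5.03. Kctd16 read 7.96 in PGC-1alpha phenformin replicate 2, with the others at 7.39 to 7.53.

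The chromosome 18 probe sets that carry no gene symbol were left out of every count above. There were 35, of which 28 had enough signal to be tested. Of these 28, 7 passed the test of the line difference under phenformin, 5 higher and 2 lower. Over all tested genes 10% were higher and 11.1% lower. Unlike the genes with a symbol (20 higher and 73 lower), more of these probe sets were called higher than lower. Their median log2 difference was -0.01, with 15 of 28 below 0, against a median of -0.17 for the genes with a symbol. Under PBS 0 passed limma's test, and 2 had an unadjusted p under 0.05.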

How the results depend on the processing

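The count of genes called under PBS (8) was 13 with array weights, 0 with the lung or the immune score as a covariate, and 2 without the 4 arrays of lowest weight (control PBS replicates 1 and 5, control phenformin replicates 2 and 3), a setting chosen after seeing the data. It ran from 1 to 11 when each array was left out. The count under phenformin (93, or 25.8% against 21.1% of all tested genes) was 51 after quantile normalization (14.2% against 15.7%), 58 after cyclic loess (16.1% against 15.1%), 60 with the lung and 41 with the immune score, and 61 to 102 without single arrays. Its median (-0.171) was -0.110 with no filter on low values and -0.236 with a filter at the array median, and -0.210 to -0.150 without single arrays. The averaged count (103) was 21 and 6 with the lung and immune scores, and 85 to 116 without single arrays. With 5 blocks in place of 10, 100% of block medians were below 0 under PBS, against 90%. The cause of these changes was not tested. The PBS median (-0.0658) was -0.0435 after quantile normalization, -0.0316 with the immune score, -0.0998 with a filter at the array median and -0.102 without the 4 arrays of lowest weight, and ran from -0.0835 to -0.0493 without single arrays. The medians of phenformin in control metastases, in PGC-1alpha metastases and of the interaction ran from 0.0228 to 0.0632, -0.0542 to -0.000782 and -0.110 to -0.0676, with 0 genes called each time. No named call changed sign in any setting run.

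The labels give the groups the same replicate numbers. Of 31 pairs of same-numbered samples, 7 deviated together with a correlation over 0.1 (range -0.189 to 0.312). Between the 2 PGC-1alpha groups the correlations were 0.124, 0.312, 0.121 and 0.103 for replicates 2, 3, 5 and 6. For replicates 1 and 4 they were 0.006 and 0.038. These values cannot show whether same-numbered samples share a batch or an animal, which the labels do not say. With the replicate block the counts were 10 under PBS, 92 under phenformin and 102 averaged. Of 40 phenformin calls among the largest differences and the lists, 13 held in every setting that tested them, and of 8 under PBS none did. Arrays give no counts, so their number limits the precision.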
